A study of Gallus gallus with 12 samples.

Results

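The long noncoding RNA (lncRNA) genes that chicken primordial germ cells (PGCs) expressed most were described across 3 embryonic stages and both sexes. Members were selected on measured values and annotation. A gene was included when the gene table typed it lncRNA, when it was not on the W chromosome, when its summed exon length was at least 300 bases and when its level averaged at least 10 TPM (transcripts per 1000000 transcripts, a level per length and depth) over the 12 libraries. These rules kept 184 genes of 24356 in the table. The table typed 5503 genes as lncRNA and placed none of them on W. Of those, 5475 met the length rule, 933 averaged at least 1 TPM, and 1735 had no read in any library. The table gives a type only to genes without a name, so lncRNA genes that carry a name could not be members, and all 184 are called here by their Ensembl identifiers.

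PGCs of white Leghorn embryos were sorted by flow cytometry for SSEA-1, a surface antigen of early chicken PGCs. They came from the blood at embryonic day 2.5 (E2.5, circulating PGCs, cPGCs) and from the gonads at E4.5 and E6.5 (gonadal PGCs, gPGCs), separately for ZZ males and ZW females. Each of the 6 groups of stage and sex had 2 libraries, and each library was made from cells pooled from 6 to 14 embryos, with no genetic change or treatment in any group. Stage and tissue of origin cannot be told apart between E2.5 and the later days, and in pooled bulk RNA fewer cells of a type and less RNA per cell cannot be told apart either.

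lncRNAs are transcripts of RNA polymerase II that carry no long reading frame. Many are spliced and polyadenylated like messenger RNAs, and they are often less abundant and more restricted to single tissues than messenger RNAs. Some act on chromatin or on the transcription of a nearby gene, others host small nucleolar RNAs or microRNAs in their introns, and for most no function is known. Birds have no chromosome-wide silencing of one Z in males, so that many Z genes are expressed more highly in ZZ than in ZW cells.

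Between 7185031 and 13749166 reads fell on genes per library. The germ cell genes DAZL and DDX4 were present throughout, with DAZL, an RNA-binding protein of germ cells, between 1621 and 2536 TPM and DDX4, a germ cell RNA helicase, between 134.8 and 680.3 TPM. The summed level of 10 markers of gonadal somatic cells did not exceed 12.7 TPM in any library. Globin genes took 0.257% to 16.5% of the TPM of the E2.5 libraries, the most in the first female pool, and at most 0.0631% at the later stages. In the E6.5 females, the kidney and liver markers summed to 451 TPM in the first pool and 3730 TPM in the second, against at most 17.6 TPM in the E6.5 males.

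The 184 genes were spread over 30 chromosomes, with 21 on chromosome 1, 18 on chromosome 3, 17 on chromosome 4 and 11 on Z. These were 2.56%, 2.89%, 3.05% and 3.82% of the lncRNA genes there that met the length rule. Among the chromosomes with members, this share ran from 1.3% on chromosome 8 to 17.6% on chromosome 28. The median exon length of the 184 genes was 1284 bases, and none was built from a single exon block. The other 5291 lncRNA genes that met the length rule had a median of 1605 bases, and only 3 of them had a single block. The members lay closer to named genes than the others did. The median distance to the nearest named gene was 3388 bases for the members and 24247 bases for the 5135 other lncRNA genes on a chromosome with a named gene. A named gene lay 1000 bases or closer, without overlap, for 47 members (25.5%) and for 319 of the others (6.21%). In 20 members (10.9%) and 173 of the others (3.37%) this was a head-to-head pair, with the genes on opposite strands and starting next to each other. In 17 members (9.24%) and 103 of the others (2.01%) the named gene was on the same strand. In 10 members (5.43%) and 43 of the others (0.837%) the genes were on opposite strands and ended next to each other. Every orientation was thus more frequent among the members. A further 22 members (12%) overlapped the span of a named gene, against 9.06% of the others. Of the 22, 19 were on the opposite strand (10.3% of the members, against 8.53% of the others). Exon bases were shared with another gene by 10 members, and because the libraries did not mark strand, reads from these stretches cannot be assigned to one gene with certainty. Elsewhere within the span of an overlapping gene, too, a read does not show which strand it came from.

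The members carried a small part of the RNA. Together they held between 0.610% and 0.938% of the TPM in 10 libraries, and 1.32% and 1.39% in the first male and the first female pool of E4.5. The levels were steeply graded. Only 14 members averaged 100 TPM or more, and 101 averaged 10 to 20 TPM. The median member had 122 to 246.5 reads per library. All but 3 members were at 1 TPM or more in every library, and 67 were at 10 TPM or more in every library. At the lower end, ENSGALG00000048588, ENSGALG00000052050 and ENSGALG00000051548 stood just inside the limit with means of 10.1 TPM each. ENSGALG00000048739, ENSGALG00000029565 and ENSGALG00000048748 stood just outside it, with means of 9.998, 9.91 and 9.84 TPM.

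The most abundant member was ENSGALG00000054208 on the minus strand of chromosome 20 (GRCg6a, 5490142 to 5492828), which ranked 80th among all genes by mean level. It overlaps the start of OSER1, a gene responsive to oxidative stress that lies on the opposite strand. In the E2.5 males its level was 1946 and 1682 TPM, and in the E2.5 females 1490 and 1682 TPM. At E4.5 it was 2318 and 1251 TPM in the males and 2542 and 1290 TPM in the females. At E6.5 it was 1296 and 1420 TPM in the males and 981.0 and 1013 TPM in the females. Every E6.5 library was below every E2.5 library, and the first E4.5 pools were above all other libraries. Its exons share bases with ENSGALG00000030976, another member on the plus strand at 31.5 to 118 TPM. OSER1 itself stood between 33.1 and 65.7 TPM, so the lncRNA gene was far more abundant per length than its named neighbour.

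ENSGALG00000034135 on chromosome 31 was second, with means of 844.0 ± 124 TPM at E2.5, 1306 ± 312 TPM at E4.5 and 963.0 ± 265 TPM at E6.5 (SD, n = 4 libraries). ENSGALG00000047339 on chromosome 18 followed, with 415 ± 99.0, 517 ± 206 and 275 ± 51.9 TPM at the same stages. The next neighbours of these genes were distant, CHIR-B5 at 97674 bases and the small nucleolar RNA gene U8 at 20167 bases. The other 9 of the 12 most abundant members averaged 102 to 160 TPM. They include ENSGALG00000048150 on Z, ENSGALG00000037040, which lies 3423 bases downstream of the heat shock protein gene HSPA4L, and ENSGALG00000050999, which lies 175 bases from KLHL10, a testis ubiquitin ligase adaptor in mammals. ENSGALG00000037040 ranged from 62.9 to 397 TPM and ENSGALG00000050999 from 26.2 to 311 TPM, both with their 2 highest values in the first E4.5 pools. ENSGALG00000020510 ranged from 83.8 to 193 TPM. The steadiest members, named after their values were seen, were ENSGALG00000049195 on chromosome 18, which ran from 27.5 to 52.3 TPM, ENSGALG00000041996, which overlaps the orphan nuclear receptor gene ESRRG and ran from 23.3 to 51.1 TPM, and ENSGALG00000051553, 93 bases from the RNA-binding protein gene YBX3, which ran from 10.4 to 23.2 TPM.

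**Figure D1:**
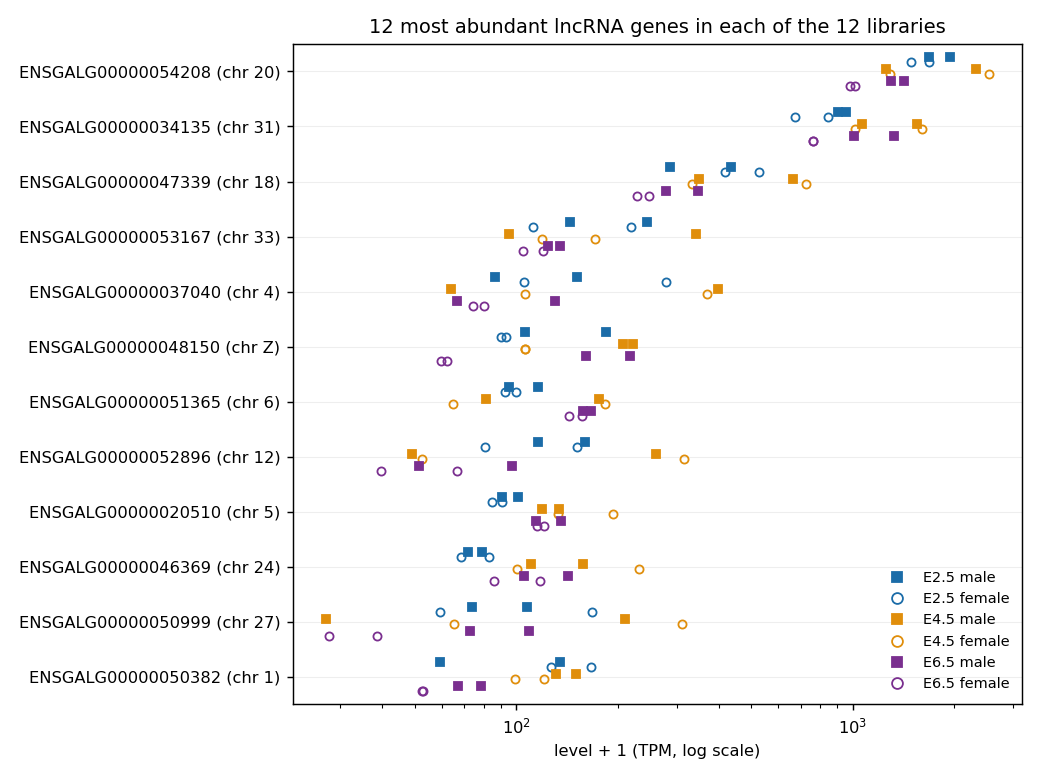
Level of the 12 most abundant lncRNA genes in each library, as TPM plus 1 on a log scale; squares are males, open circles females, and colours give the stage. ENSGALG00000054208 lies between 981.0 and 2542 TPM, with its E4.5 values near 1251 and 1290 TPM in the second pools and 2318 and 2542 TPM in the first.

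Both first pools of E4.5 differed from the other libraries in these genes. On TPM + 1, 80 of the 184 members were at least 2-fold higher in the first than in the second pool of E4.5 males (43.5%) and 80 in the first than in the second pool of E4.5 females (43.5%), and 62 were so in both. Among the 6909 genes of any type that average 10 TPM or more, the shares were 22.3% and 23.4%. The median member was 1.72-fold higher in the first male pool and 1.77-fold higher in the first female pool, and the median gene 1.10-fold and 1.11-fold higher. A first E4.5 pool was the highest library for 107 members. For this count and for the 62, the share of the 6909 genes is not given here. Without both first E4.5 pools, 17 members would average under 10 TPM. These 17 are members only through the first E4.5 pools and are among the 184 counted above. At E6.5, 10 and 8 members were 2-fold higher in the first male and female pools (5.43% and 4.35%). Among the genes that average 10 TPM or more, the shares were 1.95% and 1.64%. At E2.5, 4 and 1 members were 2-fold higher there (2.17% and 0.543%, against 11.5% and 1.46% of those genes). In the first male and female pools of E2.5, 29 and 24 members were 2-fold lower (15.8% and 13%, against 1.79% and 7.18% of those genes). The first E4.5 pools had the fewest reads of the 12 libraries, and the part of depth in their difference was not tested.

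On the same scale, 7 members were more than 8-fold higher in the first pools of both sexes. No share of all genes is given here for that count. The members given next were named after their values were seen. ENSGALG00000049469 on chromosome 6 stood at 312 and 294 TPM in the first male and female pools of E4.5 and at 14.8 and 12.9 TPM in the second. It was between 3.74 and 28.8 TPM at the other stages. ENSGALG00000046971, on the strand opposite to the complement gene C3, had 170 and 202 TPM in the first and 11.5 and 13.2 TPM in the second pools. ENSGALG00000037329 on chromosome 4 had 65.6 and 79.4 against 6.68 and 8.65 TPM. Outside the first E4.5 pools it stayed at or below 8.65 TPM, so it is a member only through them. ENSGALG00000048571 on chromosome 2 had 145 and 148 against 7.68 and 16.0 TPM. The opposite order occurred as well. ENSGALG00000052618 on chromosome 5 had 11.6 and 4.88 TPM in the first and 43.4 and 43.5 TPM in the second pools, and 30.0 to 45.3 TPM in all libraries of the other stages. Any comparison with E4.5 therefore set a wide spread within E4.5 against the difference between stages.

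**Figure D2:**
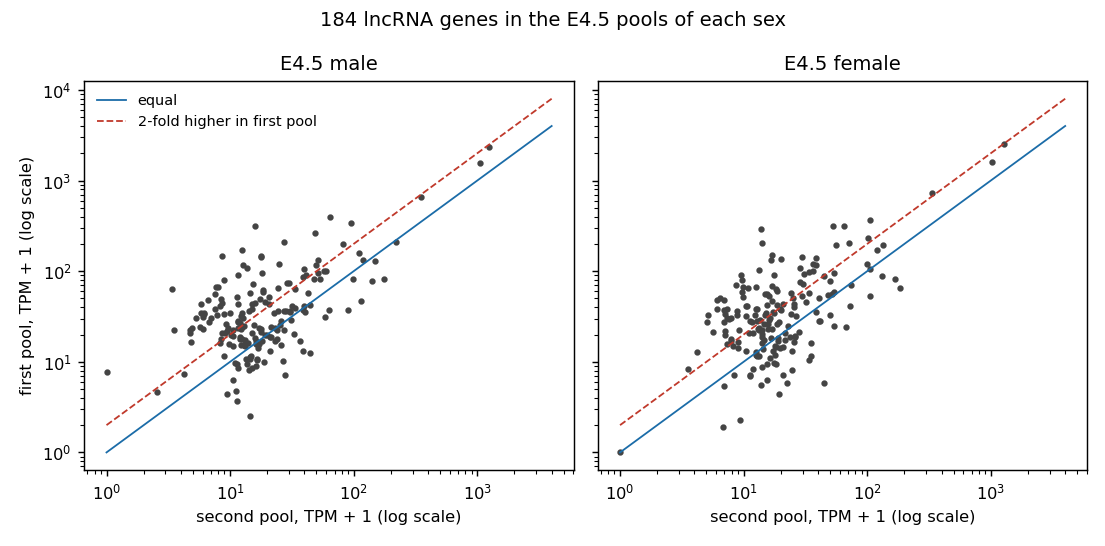
Each of the 184 lncRNA genes in the first pool (y axis) against the second pool (x axis) of E4.5, males left and females right, as TPM plus 1 on log scales; the solid line marks equal levels and the dashed line a 2-fold higher level in the first pool. In each sex 80 genes lie at or above 2-fold.

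The change from cPGCs at E2.5 to gPGCs at E6.5 was tested with 4 libraries a stage and sex as a covariate, on log2(TPM + 1), and a gene was called at an adjusted p under 0.05 over all genes tested. Of 183 members tested, 5 rose and 17 fell. Over all 11895 genes tested, 9.13% were called, 3.14% higher and 5.99% lower at E6.5, against 2.73% and 9.29% of the members. At a log2 change of 3 or more in size there were 3 members, all lower, and 0.235% of all genes. The median log2 change of the members was -0.18 and that of all genes -0.11. When the libraries were scaled by the median of their gene ratios, the median of all genes moved to 0.03, and 15 members rose and 15 fell, 20 of the 22 being called again. Over all genes that scaling changed the calls from 373 higher and 713 lower to 776 higher and 686 lower. The count rose to 49 without the first E2.5 male pool. It fell to 11 without the second E2.5 male pool, to 10 without the second E2.5 female pool, to 10 without the second E6.5 male pool, and to 13 and 12 without the first and the second E6.5 female pool. The shares of all genes called with single libraries left out are not given here, so these counts show only how the calls depend on single pools. Of the 22, 9 stayed below 0.05 with each library left out, and 3 in all 17 alternatives. These 3 were also the largest decreases. Averaged over the libraries outside E2.5, 6 members were under 10 TPM, and outside E6.5, 11 were. Those are members only through the stage left out.

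ENSGALG00000051562 on chromosome 2 (52035577 to 52066214, minus strand, 6 exon blocks) had the largest decrease. At E2.5 it stood at 57.5 and 102 TPM in the males and at 119 and 160 TPM in the females. At E4.5 it was at 9.33 and 25.8 TPM in the males and at 18.3 and 24.9 TPM in the females, and at E6.5 at 2.30 and 3.49 TPM in the males and 6.27 and 6.5 TPM in the females. The stages did not overlap, each being below the one before. Its log2 change to E6.5 was -4.29 ± 0.27 (standard error, adjusted p = 9.81e-06), and it stayed below 0.05 in every alternative, with adjusted p up to 0.00964. The nearest named gene, SEC61G, a subunit of the protein translocon of the endoplasmic reticulum, lies 48687 bases away and changed by -0.27 ± 0.22 (adjusted p = 0.440).

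ENSGALG00000050997 on chromosome 1 (101814019 to 101815542) fell from 77.8, 149, 85.7 and 146 TPM at E2.5 to 6.94, 4.17, 16.8 and 10.5 TPM at E6.5, males before females. All E4.5 libraries lay between these, at 23.5 to 49.0 TPM. Its log2 change was -3.53 ± 0.33 (adjusted p = 0.000235). The neural cell adhesion gene NCAM2, 261843 bases away, went from a mean of 8.20 to 3.22 TPM, a log2 change of -1.12 ± 0.35 that missed the threshold (adjusted p = 0.0627).

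ENSGALG00000048764 on chromosome 12 fell from 31.3, 33.9, 36.8 and 19.5 TPM to 3.80, 2.11, 2.44 and 1.71 TPM (log2 change -3.16 ± 0.31, adjusted p = 0.000266). At E4.5 it had 1.54 TPM in the first and 13.4 TPM in the second male pool, and 33.2 and 14.2 TPM in the female pools, so it spanned nearly the whole range within that stage. Averaged over the libraries outside E2.5 it was under 10 TPM. It thus became a member only through the stage where it is high, and its call is given as a description.

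On chromosome 5, ENSGALG00000053806 fell from a mean of 43.0 ± 2.66 TPM to 11.3 ± 2.09 TPM (SD, n = 4), a log2 change of -1.85 ± 0.24 (adjusted p = 0.00127). All of its E4.5 libraries, at 8.70 to 16.7 TPM, were already below every E2.5 library. ENSGALG00000049182, also on chromosome 5, fell from 40.2 ± 8.22 to 14.9 ± 2.47 TPM (log2 change -1.36 ± 0.25, adjusted p = 0.00791).

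For 2 of the members that fell, the named gene that overlaps them or lies next to them also fell. ENSGALG00000043013 lies within the span of EPCAM, on the opposite strand of chromosome 3 (9303792 to 9310266), and EPCAM encodes a cell adhesion molecule of epithelia and early germ cells. ENSGALG00000043013 had 38.1 and 54.2 TPM in the E2.5 males and 34.7 and 45.8 TPM in the E2.5 females. It had 23.4 and 16.0 TPM in the E6.5 males and 13.8 and 8.54 TPM in the E6.5 females, all below E2.5. Its log2 change was -1.49 ± 0.27 (adjusted p = 0.00848). EPCAM fell from a mean of 1674 to 524 TPM (log2 change -1.67 ± 0.16, adjusted p = 0.000235). At E4.5 they differed: the first pools were the higher for ENSGALG00000043013, with 50.9 and 68.2 against 19.6 and 15.9 TPM, and the lower for EPCAM, with 606 and 618 against 1193 and 1027 TPM. The part of EPCAM reads in the level of ENSGALG00000043013 was not tested.

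ENSGALG00000049978 starts 166 bases from SATB1, a chromatin organiser, in a head-to-head pair on chromosome 2. It had 35.1, 50.2, 34.3 and 37.5 TPM at E2.5 and 11.5, 22, 16.7 and 22.2 TPM at E6.5 (log2 change -1.10 ± 0.27, adjusted p = 0.0278). SATB1 fell from a mean of 6.73 to 2.29 TPM (log2 change -1.26 ± 0.33, adjusted p = 0.0340). Over all called members, 18 had a neighbour that could be tested, and 3 of those neighbours were called, each in the direction of the member. The one besides EPCAM and SATB1 was U6, 28538 bases from ENSGALG00000048072. This U6 gene is 102 bases long and had 2.58 to 9.21 TPM at E6.5, which in so short a gene is only a few reads. Of all 139 neighbours tested, 15 were called (10.8%), close to the 9.13% of all genes.

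The other decreases among the 6 largest were those of ENSGALG00000051876 on chromosome 4 and ENSGALG00000048571 on chromosome 2. ENSGALG00000051876 had 24.8 to 51.9 TPM at E2.5 and 18.2, 3.60, 21.5 and 2.52 TPM at E6.5, where the second pools of both sexes were the low ones (log2 change -2.08 ± 0.55, adjusted p = 0.0365). It was called in 7 of 17 alternatives. ENSGALG00000048571 had 15.3, 85.1, 19.4 and 63.8 TPM at E2.5, low in both first pools, and 7.25 to 12.3 TPM at E6.5 (log2 change -1.83 ± 0.48, adjusted p = 0.0351). The remaining 8 decreases had log2 changes between -1.69 and -0.54. Among them were ENSGALG00000052896, which fell from 126 ± 36.2 to 62.8 ± 24.8 TPM, and ENSGALG00000054208, which fell from 1700 ± 187 to 1177 ± 215 TPM (log2 change -0.54 ± 0.15, adjusted p = 0.0448, called in 3 of 17 alternatives). Also among them was ENSGALG00000052383, 23302 bases downstream of SOX4, a transcription factor of progenitor cells. ENSGALG00000052383 fell by 1.37 on the log2 scale. It is a member only through E2.5, with a mean under 10 TPM outside that stage. SOX4 itself missed the threshold at -1.08 ± 0.32 (adjusted p = 0.0519).

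Among the 5 members that rose, ENSGALG00000010691 on chromosome 3 (34837317 to 34858844, 13 exon blocks) rose the most, from 13.0, 6.76, 11.5 and 8.10 TPM at E2.5 to 25.3, 36.4, 46.7 and 23.3 TPM at E6.5 (log2 change 1.63 ± 0.31, adjusted p = 0.00969). Its groups did not overlap, and it stayed below 0.05 with each library left out. DESI2, a gene for a deSUMOylating peptidase 2016 bases downstream, had a log2 change of -0.70 ± 0.25 (adjusted p = 0.0944). ENSGALG00000048407 starts 4661 bases downstream of CYP26B1, whose enzyme degrades retinoic acid, and is on the same strand of chromosome 4. It had 4.57, 14.6, 9.44 and 7.68 TPM at E2.5 and 36.3, 28.9, 22.2 and 16.2 TPM at E6.5 (log2 change 1.46 ± 0.35, adjusted p = 0.0245). Outside E6.5 it averaged just under 10 TPM. It is thus a member only through the stage where it is high, and its call is given as a description. CYP26B1 stayed at or below 1.53 TPM in every library and was not tested.

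ENSGALG00000047670, 9487 bases from the neural transcription factor gene POU3F3, rose from 7.25 ± 3.16 to 21.5 ± 12.5 TPM, with its highest value, 40.0 TPM, in the second E6.5 female pool (log2 change 1.40 ± 0.35, adjusted p = 0.0291). ENSGALG00000052590 on chromosome 4 rose from 76.7 ± 28.4 to 136 ± 43.4 TPM with overlapping groups (log2 change 0.82 ± 0.22, adjusted p = 0.0350). ENSGALG00000051365 on chromosome 6 rose from 91.8 to 115 TPM at E2.5 to 142 to 165 TPM at E6.5, without overlap (log2 change 0.63 ± 0.17, adjusted p = 0.0390). These last 3 were called in 5 or 6 of 17 alternatives each.

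**Figure D3:**
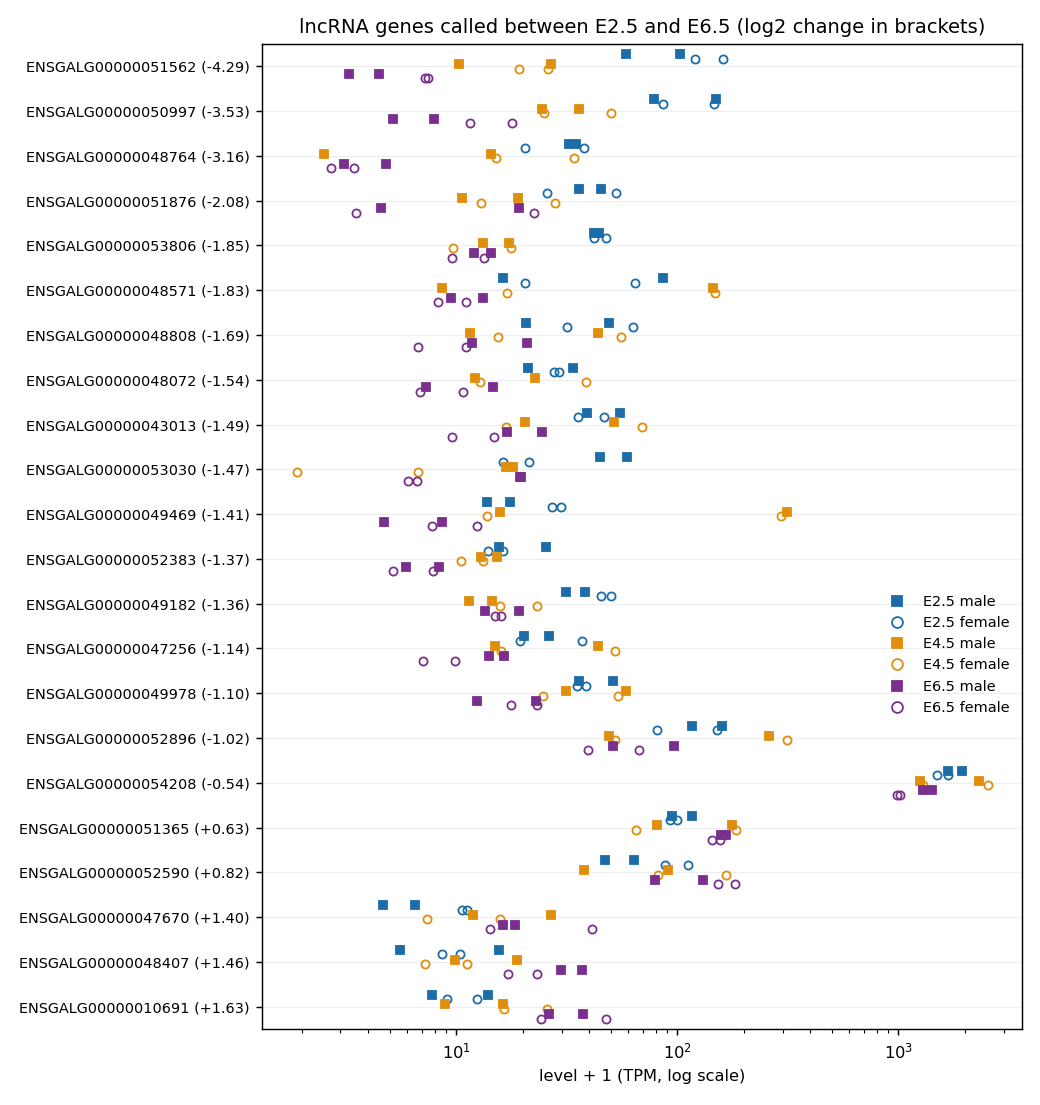
The 22 lncRNA genes called between E2.5 and E6.5, with their levels in all 12 libraries as TPM plus 1 on a log scale and the log2 change in brackets; squares are males, open circles females. ENSGALG00000051562, at the top, runs from 160 TPM down to 2.30 TPM, and ENSGALG00000010691, at the bottom, from 6.76 up to 46.7 TPM.

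Over the single steps the tests called few genes. From E2.5 to E4.5, 1 of 183 members was called, with 0.0837% of 11942 genes called. It was ENSGALG00000051562, with a log2 change of -2.43 ± 0.37 (adjusted p = 0.0247). Its change was below the log2 size of 3 that 0.067% of all genes reached with a call. The call was lost without any one of the E2.5 libraries and without the first E4.5 male pool (highest adjusted p = 0.203), and also with no filter on low values, with scaling by the median of gene ratios and with limma-voom. With both first E4.5 pools left out, 4 members were called, all of them lower at E4.5. Without the first female pool alone 2 were called. For both of these refits the share of all genes called is not given here, so the counts show only that the calls depend on these pools. From E4.5 to E6.5, limma called 0 of 183 members and 0 of 11610 genes. At an unadjusted p under 0.05 there were 26 members (14.2%) against 10.4% of all genes, and limma-voom on recovered reads also called 0 members. The median log2 change of the members was 0.21 for the first step and -0.42 for the second, and that of all genes -0.11 and 0.00. Both medians include the first E4.5 pools, where the median member stood at 29.5 TPM in males and 31.4 TPM in females. In the second E4.5 pools it stood at 14.7 and 15.9 TPM. It was 14.8 TPM or more at E2.5 and 13.5 to 18.3 TPM at E6.5, in every library below the first E4.5 pools. The second E4.5 pools thus show no rise of the median member above all E2.5 libraries.

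Of 21 listed genes whose products process or bind noncoding RNA, 18 were in the table. Between E2.5 and E6.5, 4 of 17 tested fell, none rose, and the median log2 change was -0.74. Over all genes 5.99% fell and 3.14% rose, with a median of -0.11. DROSHA, the nuclear microRNA processing nuclease, changed by -1.03 ± 0.30 (adjusted p = 0.0487). XPO5, which exports microRNA precursors, changed by -1.13 ± 0.28 (adjusted p = 0.0291). The paraspeckle protein gene PSPC1 changed by -1.01 ± 0.28 (adjusted p = 0.0421) and HNRNPU, which tethers RNA to the nuclear scaffold, by -1.14 ± 0.26 (adjusted p = 0.0193). DGCR8, the partner of DROSHA, missed the threshold at -1.13 ± 0.33 (adjusted p = 0.0502). None of the list was called in a sex comparison or in either single step.

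Between the sexes, the tests with all libraries kept and without a replicate block called members at E6.5 only. Each sex comparison had 2 libraries a sex, for which an exact permutation test of one gene could not go below 0.333, so the calls rest on the spread that limma estimates across genes. At E6.5, 2 of 184 members were higher in females and 4 in males, with 2.19% of 12029 genes called, 1.38% higher in females and 0.806% higher in males. Here and in the other sex tests, all genes include those on W, which could not be members. At a log2 difference of 3 or more in size there were 2 members, both higher in females and both members only through the E6.5 females, and 1.17% of all genes. The count fell to 0 without either E6.5 male pool, rose to 20 without the first female pool and to 10 without the second. Each of these fits leaves 1 library in an arm and assumes that it varies like the other group. Their shares of all genes called are not given here. The count was 2 after scaling by the median of gene ratios, 1 in each direction, and 0 with limma-voom or with no filter on low values. No direction changed under that scaling.

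More widely, both E6.5 male pools were above both female pools in 87 members (47.3%), against 28.2% of all genes tested, and both female pools were above both male pools in 15 members (8.15%), against 18.2%. The median log2 difference, female minus male, was -0.33 for the members and -0.08 for all genes. At E2.5, both males were above both females in 29 of 183 members (15.8%), against 36.5% of all genes, and the medians were 0.00 and -0.34. Scaling by the median of gene ratios moved these E2.5 medians to 0.35 and -0.02. Of the E2.5 libraries the first female pool had 16.5% of its TPM on globin genes, and the part of this in the E2.5 difference was not tested.

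The 2 members higher in E6.5 females were ENSGALG00000045809 and ENSGALG00000051463. ENSGALG00000045809 (chromosome 6, 10064230 to 10065396, plus strand) lies 149 bases from the end of ECHS1, a mitochondrial enzyme of fatty acid oxidation on the opposite strand. In the E6.5 females it had 34.6 and 337 TPM, and in the E6.5 males 2.47 and 4.29 TPM. In the other libraries it stayed between 0.654 and 7.39 TPM, except for 22.3 TPM in the first E4.5 male pool. Its mean over the 10 libraries outside the E6.5 females was 5.44 TPM, so it became a member only through the group where it is high, and its call is given as a description. ECHS1 had 50.4 and 116 TPM in the E6.5 females and 46.8 and 38.1 TPM in the males, a log2 difference of 0.84 ± 0.38 (adjusted p = 0.361).

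ENSGALG00000051463 (chromosome 5, 59261729 to 59266677) had 159 and 846 reads in the E6.5 females, or 23.1 and 131 TPM, and 2 and 3 reads in the E6.5 males. It had 6.66 TPM in the first E4.5 male pool and at most 0.688 TPM in the other 7 libraries of the earlier stages, 4 of them at 0 reads. Its mean outside the E6.5 females was 0.889 TPM, so that it passed the 10 TPM rule, and the filter on low values, only through the group where it is high. The filter kept it out of the stage tests and the other sex tests, and its call at E6.5 is given as a description.

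APOA1, TTR, CUBN and HNF4A moved with these members, but not every listed kidney and liver gene did. APOA1, the main apolipoprotein of high-density lipoprotein, had 398 and 3022 TPM in the E6.5 females and 12.6 and 7.90 TPM in the males. TTR, a thyroid hormone carrier made by liver, had 43.8 and 660 TPM in the females and 1.06 and 1.05 TPM in the males. CUBN, a receptor of the kidney proximal tubule, had 2.69 and 17.8 TPM in the females and 0.0845 and 0.0116 TPM in the males. HNF4A, a transcription factor of liver and kidney epithelium, had 2.56 and 12.9 TPM in the females and no read in the males. The liver marker ALB stayed at 2.63 TPM or lower in every library. LRP2 had 0.623 and 3.36 TPM in the E6.5 females and 0.145 and 0.517 TPM in the males, but 2.27 to 3.48 TPM at E2.5. LHX1 had 0.436 and 1.12 TPM in the E6.5 females and 0.622 and 0 TPM in the males. The first E4.5 male pool, the remaining library with a higher level of both members, also had the highest APOA1 outside the E6.5 females, 73.3 TPM, with 9.09 TPM of TTR. Of the 9 list genes in the table, 6 were tested at E6.5 and 2, APOA1 and TTR, were called, both higher in females. PAX2, HNF4A and CUBN, also higher in females, missed the threshold (limma, adjusted p = 0.148, 0.0604 and 0.0740). ALB was lower in females and missed it too (adjusted p = 0.253). The part of other cell types in the level of these members was not tested.

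In the second E6.5 female pool, 3 members (1.63%) were at least 2-fold higher than in any other library, against 2.34% of the genes that average 10 TPM or more. Besides the 2 above it was ENSGALG00000048793, which overlaps the glutamate receptor gene GRIK2, with 55.1 TPM there and 1.30 to 14.7 TPM elsewhere. Outside E6.5 it stayed at or below 8.39 TPM, so it is a member only through that stage.

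**Figure D4:**
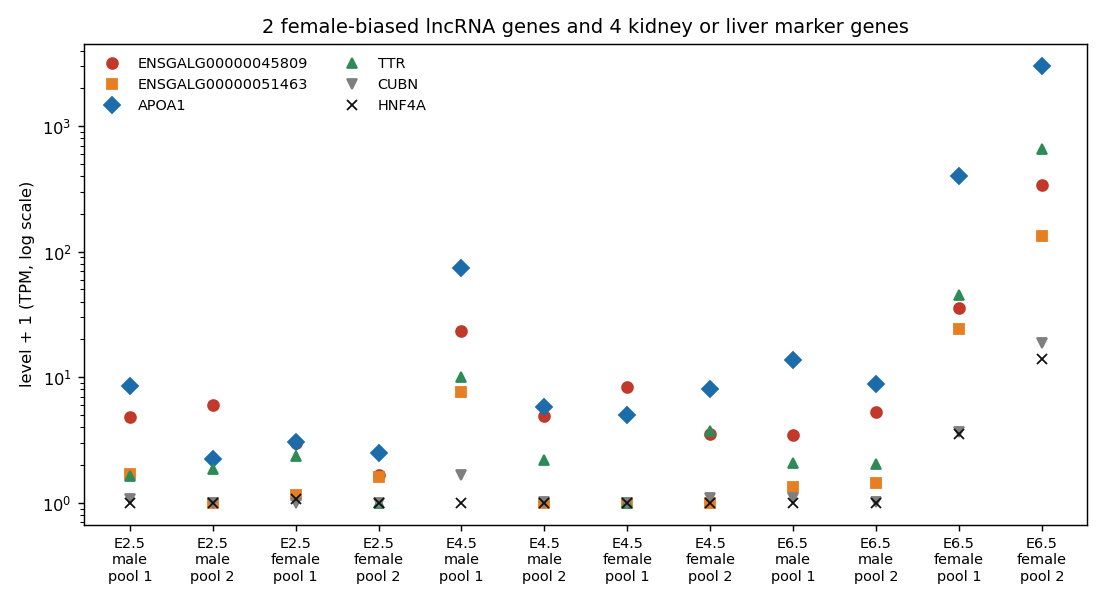
The 2 lncRNA genes called higher in E6.5 females, ENSGALG00000045809 and ENSGALG00000051463, and 4 kidney or liver marker genes in each library, as TPM plus 1 on a log scale. All 6 are highest in the second E6.5 female pool, and the first E4.5 male pool has raised values of ENSGALG00000045809 (22.3 TPM) and APOA1 (73.3 TPM).

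Of the 4 members higher in E6.5 males, 3 are on Z. Over all genes, 97 were called higher in males, 65 of them among the 581 other Z genes. The autosomal one was ENSGALG00000050133 on chromosome 1, 3233 bases from the thyroid hormone transporter gene SLCO1C1. It had 17.0 and 11.1 TPM in the E6.5 males and 2.59 and 1.75 TPM in the females (log2 difference -2.23 ± 0.38, adjusted p = 0.0257). At E2.5 the sexes overlapped, with 13.9 and 14.6 TPM in males and 12.1 and 19.3 TPM in females. At E4.5 the first pools had 15.6 and 32.9 TPM and the second pools 3.84 and 6.11 TPM.

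On Z, ENSGALG00000048150 (23455217 to 23458422, plus strand) was the most abundant member, in a head-to-head pair 433 bases from F2R, the thrombin receptor gene. It had 216 and 160 TPM in the E6.5 males and 61.5 and 58.9 TPM in the females, a log2 difference of -1.61 ± 0.25 (adjusted p = 0.0183). At E4.5 it had 207 and 221 TPM in the males and 105 TPM in each female pool, and at E2.5 105 and 183 TPM in the males and 89.1 and 92.4 TPM in the females. The sexes did not overlap at any stage. F2R changed by -0.93 ± 0.43 at E6.5 (adjusted p = 0.371).

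ENSGALG00000045548 overlaps MRPS27, a mitochondrial ribosome gene, on the opposite strand of Z. It had 23.8 and 33.3 TPM in the E6.5 males and 6.56 and 6.04 TPM in the females (log2 difference -2.00 ± 0.32, adjusted p = 0.0204). MRPS27 differed by -0.72 ± 0.24 (adjusted p = 0.199). ENSGALG00000053030, 64483 bases from TMEM161B, had 18.8 and 18.5 TPM in the E6.5 males and 5.06 and 5.69 TPM in the females (log2 difference -1.63 ± 0.32, adjusted p = 0.0391). It also fell between E2.5 and E6.5 (log2 change -1.47 ± 0.25, adjusted p = 0.00588), from 58.6 and 43.6 TPM in the E2.5 males and 20.3 and 15.2 TPM in the E2.5 females, so that it fell and kept the male excess.

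All 11 Z members had higher means in males at E6.5, with log2 differences from -2.00 to -0.58, and none of them overlapped between the sexes. The median was -1.24 for the Z members and -0.86 for the 581 other Z genes tested. Off Z it was -0.31 for the members and -0.06 for the genes on neither Z nor W, so the members off Z also lay lower. Both males were above both females in 77.8% of the other Z genes at that stage and in 43.9% of the members not on Z. At E4.5, 10 of the 11 had higher means in males on the log2 scale, with a median of -0.99 against -0.78 for the other Z genes, and 6 did not overlap (54.5%, against 49.9% of the other Z genes). At E2.5, 10 of the 11 did, with a median of -0.89 against -1.11, and 9 did not overlap (81.8%, against 81.9%). For the members not on Z the median was 0.14 at E4.5 and 0.03 at E2.5. For the genes on neither Z nor W it was 0.05 and -0.32. The same numbers of Z members lay below 0 after scaling by the median of gene ratios. No Z member was called at E2.5 or E4.5.

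The exceptions differed by stage. ENSGALG00000045015, 1076 bases from the phosphatase gene PTPRD, had 12.8 TPM in each E2.5 male pool and 13.2 and 18.1 TPM in the females. ENSGALG00000045948 had 14.6 and 16.0 TPM in the E4.5 males and 31.9 and 7.90 TPM in the females, the high value again in a first pool. The other Z members were ENSGALG00000046953, ENSGALG00000040221, ENSGALG00000050892, ENSGALG00000044150, ENSGALG00000048281, 873 bases from the ubiquitin ligase gene UHRF2, and ENSGALG00000052891, on the strand opposite to AOPEP. At E6.5 their male means were 1.55 to 2.68 times their female means. The smallest ratio was that of ENSGALG00000052891, with 15.5 and 18.8 TPM in males and 10.2 and 12.1 TPM in females. In 5 members, the 3 called ones with ENSGALG00000044150 and ENSGALG00000050892, the sexes did not overlap at any of the 3 stages. How many of the other Z genes were separated in every stage is not given here. This count therefore does not set the members apart from other Z genes.

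**Figure D5:**
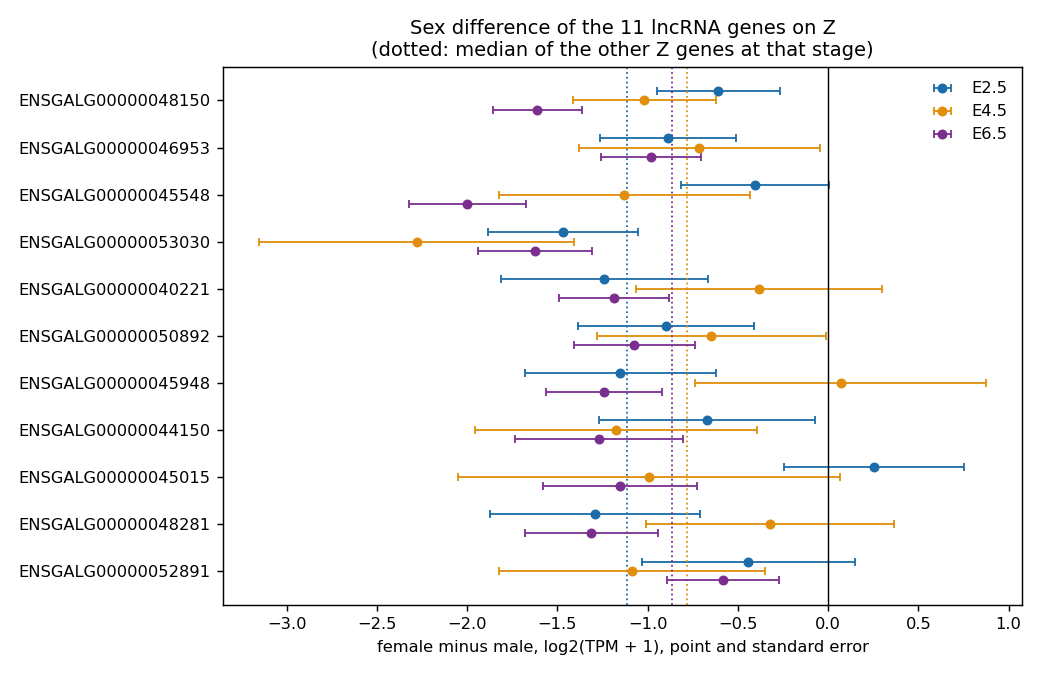
Sex difference, female minus male on log2(TPM + 1), of the 11 Z-linked lncRNA genes at each stage, with standard errors; dotted lines give the median of the other Z genes of that stage (-1.11 for E2.5, -0.78 for E4.5 and -0.86 for E6.5). All E6.5 points lie below 0.

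The remaining sex tests, with all libraries kept and without a replicate block, gave no calls among the members. At E2.5 limma called 0 of 183 members with 0.242% of 12381 genes called, W genes being among those tested. There were 12 members (6.56%) at an unadjusted p under 0.05 against 11.6% of all genes, and limma-voom called 0 members. Without the second E2.5 male pool 3 members were called. At E4.5 limma called 0 of 183 members with 0.0164% of 12229 genes called, 2 members (1.09%) had an unadjusted p under 0.05 against 0.989% of all genes, and limma-voom called 0 members. Whether the change from E2.5 to E6.5 differed between the sexes was tested over all 12 libraries. There limma called 0 of 184 members and 0 of 14154 genes, with 8 members (4.35%) at an unadjusted p under 0.05 against 5.16% of all genes, and limma-voom called 0 members. Without the first E6.5 female pool 2 members were called.

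The span of 8 members held annotated small RNA genes. ENSGALG00000047410 on chromosome 33 held SNORD30 and SNORD22, box C/D small nucleolar RNAs, and had 36.0 to 191 TPM and 11 exon blocks. ENSGALG00000052055 on chromosome 3, which lies 12857 bases from the RNA-binding protein gene SYNCRIP, ENSGALG00000053249 on chromosome 19 and ENSGALG00000041778 on chromosome 18 each held 2 unnamed small nucleolar RNA genes, and ENSGALG00000046953 on Z held 1. ENSGALG00000054143 on chromosome 23 held SNORA73 and ENSGALG00000052658 on chromosome 2 the microRNA gga-mir-6572, both on the same strand. ENSGALG00000054463 on chromosome 3 held gga-mir-1784 on the opposite strand.

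The small RNAs themselves had no more than 25 reads in any library, and the values describe the 8 members only. Position within the span does not show that the small RNAs are made from the transcripts of these members. None of the 8 members was called in any comparison. They shared the split of the E4.5 pools to different degrees. ENSGALG00000052658 had 79.8 and 90.0 TPM in the first and 7.86 and 8.58 TPM in the second pools, and ENSGALG00000054143 had 94.6 and 89.6 against 17.1 and 16.6 TPM. ENSGALG00000041778 had 21.7 and 33.0 against 16.9 and 23.3 TPM, and ranged only from 13.0 to 33.0 TPM over all 12 libraries.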

How the data were processed

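SSEA-1-sorted PGCs were profiled with SMART-seq v4 and Nextera XT libraries, which do not mark strand, read as paired ends on a HiSeq instrument. Per the labels and the study's methods, reads were checked with FastQC 0.11.9, trimmed with Trimmomatic 0.39 and Trim Galore 0.6.6 (cutadapt 3.1), aligned to GRCg6a with STAR 2.7.3a and counted with featureCounts 2.0.1. The authors deposited 1 table of TPM per gene for the 12 libraries, in which each library sums to 1000000. How counts were turned into TPM is not given in the sources used here. Values times gene length were whole multiples of 1 step per library for 100% of the low values checked (tolerance 0.02 reads), which gave reads per gene and 7185031 to 13749166 reads per library. A count of 3 reads in a gene of 1000 bases corresponds to 0.386 to 0.702 TPM, which covers counting error only.

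The members and lists were chosen with earlier results of these data known. Tests used limma 3.58.1 in R 4.3.3 (lmFit and eBayes with trend) on log2(TPM + 1), two-sided, which understates changes of low genes, with Benjamini-Hochberg adjustment over all genes tested. Sex within a stage used the 4 libraries of that stage and genes at 1 TPM or more in at least 2. Stage used 8 libraries, sex as covariate and genes at 1 TPM or more in at least 4. The interaction used all 12 and the filter of 2 libraries. Scripts were tested on simulated data. Alternatives were a pseudocount of 0.1, no filter, median-of-ratios scaling, a replicate block, limma-voom on recovered reads, 1 fit of all 12 libraries, each sex alone, a log2 change of 3, members from 20 TPM, and single libraries left out. Leaving out both first E4.5 pools, the crossed block and scaling with the block were added after seeing the data.

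Genes were named by rule. The rule took the 12 most abundant members, the 6 largest called changes per direction and stage comparison, and members called between sexes. It also took Z members, members whose span holds small RNA genes, and the 3 on each side of the 10 TPM limit. The nearest named gene was the one at the smallest distance between gene spans. The pools are separate samples, so p-values measure the spread between pools. No sequences were used here. The nearest genes of some members are not reported here.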

Additional observations from a re-analysis of the deposited data

Results flagged for a closer look

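ENSGALG00000045809 was the one member called between the sexes whose sexes were fully separated in opposite directions at different stages. At E2.5 both male pools (3.83 and 4.96 TPM) were above both female pools (1.98 and 0.654 TPM). These values came from 14 and 22 reads in the males and 8 and 2 reads in the females, so the E2.5 order rests on few reads. At E6.5 both female pools (34.6 and 337 TPM) were above both male pools (2.47 and 4.29 TPM). The change from E2.5 to E6.5 in females minus that in males was 5.95 ± 1.37 on the log2 scale (limma, adjusted p = 0.276), which misses the threshold. Both male pools were above both female pools at E2.5 in 36.5% of all genes tested. This gene became a member only through the E6.5 females.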

How the results depend on the processing

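Between E2.5 and E6.5 (22 called), it was 6 with no filter, 6 in 1 fit of all 12 libraries, 3 in males alone, 3 at a log2 change of 3 or more and 10 to 49 with single libraries left out. For sex at E6.5 (6 called), it was 0 with no filter, 0 with limma-voom, 2 with median-of-ratios scaling, 3 in 1 fit of all 12 libraries, 2 at a log2 change of 3 or more, 3 for members from 20 TPM and 0 to 20 with single libraries left out. From E2.5 to E4.5 (1 called), it was 0 with no filter, scaling, scaling with the block, limma-voom, males alone, females alone and a log2 change of 3 or more, 4 without both first E4.5 pools and 0 to 2 with single libraries left out. For sex at E2.5 (0 called) it was 0 to 3 and for the interaction (0 called) 0 to 2 with single libraries left out. At E4.5 and from E4.5 to E6.5 the count was 0 under all alternatives run. Of 462 refits of called members under an alternative, none reversed, 277 stayed below 0.05 and 185 did not. The cause was not tested. Apart from the scaling between E2.5 and E6.5, the shares of all genes called in these refits are not given here. Counts of members in them, here and above, thus show only how the calls depend on processing and pools.

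Replicate numbers were not taken as a pairing, since no label ties pools by number and the correlation of same-numbered pools in their deviations was not above 0.1 throughout (r from -0.179 to 0.633 over 12465 genes). It was 0.633 between the sexes at E4.5 and 0.232 at E2.5. With a replicate block 17 members were called between E2.5 and E6.5, 6 for sex at E6.5, 2 for sex at E2.5, and 9 there with scaling and the block. At E6.5, where r was -0.112, the crossed block called 10 members. For the fits with a block, too, the shares of all genes called are not given here. With 2 pools a group and a median of 122 to 246.5 reads a member, small differences were not detectable at this depth.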
